A study of Mus musculus with 4 samples.

Results

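Chromosome 7 held the fewest peaks per megabase of all 19 autosomes in both peak lists of this series. Its members are all peaks that the lists place on chromosome 7 of the mouse build mm9. There were 5556 of 109740 peaks in proliferating cells (5.06%) and 37353 of 699290 in arrested cells (5.34%), or 42909 of 809030 in all. The chromosome was chosen by its number of peaks per Mb in these same lists, so its density against the other autosomes is given as a description with no test. The question was how this low value is built up along the chromosome: from a few empty or nearly empty windows, or from slightly fewer peaks everywhere.

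The samples were mouse embryonic fibroblasts, primary cells from C57BL/6 embryos at stage E13.5, used at passage 4. Chromatin was fixed with ethylene glycol bissuccinimidylsuccinate and formaldehyde, and DNA recovered with antibodies to pRb was sequenced (ChIP-seq). The proliferating cells were in 10% serum and the arrested cells had been kept for 72 hours in 0.1% serum, with 1 library and 1 deposited list for each state. Both libraries, like their inputs, carry the label KO. The labels do not name the gene removed, so it is unknown here whether these cells made pRb, and the peaks are treated as calls rather than as bound sites. Peak lists hold no expression values, so the fibroblast label could not be checked against marker genes. With 1 library a state, no difference between the states has a replicate check. The number of reads behind a peak is not in the lists, so depth is unknown.

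pRb, the retinoblastoma protein, restrains E2F transcription factors and so keeps cell cycle genes low in resting cells. It also takes part in forming compact, silent chromatin, and the series title concerns silencing of endogenous retroelements, the virus-derived repeats scattered over mammalian chromosomes. Mouse chromosome 7 is known for its imprinted domains and for long tandem arrays of related genes. In a RefSeq gene table of the build GRCm38 it held 4162 genes, the most of any autosome. Among its protein-coding genes were 126 of the 230 Vmn1r and 52 of the 123 Vmn2r genes, which code for vomeronasal pheromone receptors, and 239 of 1110 Olfr genes, which code for odorant receptors. It also held 26 of 27 Klk genes (kallikrein proteases), 19 of 20 Mrgpr genes (receptors of sensory neurons) and 93 of 397 Zfp genes (zinc-finger proteins). By gene order, 100% of its Vmn1r genes were among the first 25% of its genes, as were 41.9% of its Zfp genes and 55.8% of its Vmn2r genes. Only 3.35% of its Olfr genes were, and 0% of its Klk and Mrgpr genes. The table is of another build than the peaks, so no peak was assigned to a gene and no sequence is shown.

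Over the 149.5 Mb between its first and last peak, chromosome 7 carried 37.2 peaks per Mb in proliferating cells. The other 18 autosomes together carried 43.4, a ratio of 0.857 (95% Poisson interval 0.834 to 0.880). In arrested cells it carried 249.8 per Mb against 273.7, a ratio of 0.913 (0.903 to 0.922). The next sparsest autosomes in proliferating cells were chromosome 12, with 39.0, and chromosome 14, with 39.1. In arrested cells they were chromosome 14, with 262.5, and chromosome 12, with 262.7. Chromosome 18 was densest in both lists, at 46.6 and 281.9 peaks per Mb. Chromosome 7 thus stood below its nearest neighbour in both lists, while chromosomes 12 and 14 lay close together. The interval covers counting error only. Counts in single windows scattered more than counting alone gives, as shown further on, so the interval is narrower than the real uncertainty.

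**Figure D1:**
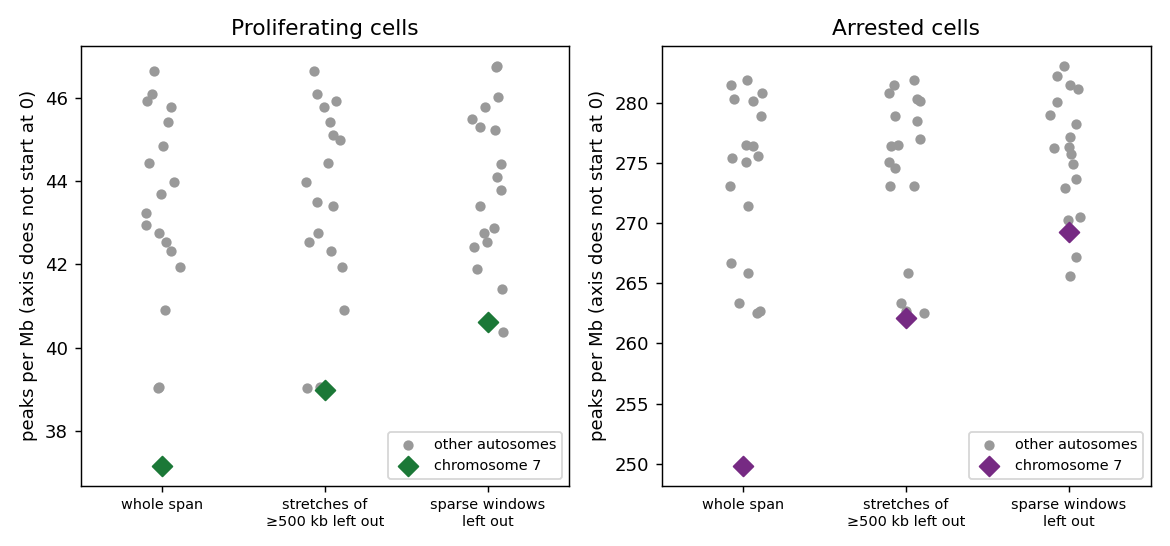
Peaks per Mb on each autosome (grey points, chromosome 7 as a diamond) over the whole span, after leaving out stretches of at least 500 kb without a peak in either list, and as the mean of 1 Mb windows that were not sparse. Chromosome 7 rose from 37.2 to 39.0 and 40.6 peaks per Mb in proliferating cells and from 249.8 to 262.1 and 269.2 in arrested cells, from below all other autosomes into their lower range.

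One stretch of the chromosome held no peak at all. Between 39355557 and 46356894 on chromosome 7, a length of 7001 kb, neither list had a call. In proliferating cells alone the empty stretch was slightly longer, from 39353279 to 46362488. The next longest stretches free of proliferating peaks ran over 504 kb from 23286493 and over 429 kb from 22191020. In arrested cells the next longest were 156 kb from 8594481 and 148 kb from 8089163. On the other 18 autosomes, 5 stretches of at least 500 kb were free of peaks in both lists. They lay on 4 chromosomes and added up to 7.28 Mb, and the longest, on chromosome 8, measured 2001 kb. So chromosome 7 alone held nearly as much of such empty length as the other 18 autosomes together. No mm9 sequence or list of assembly gaps was used here, and whether reads could be placed in this stretch was not tested.

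Leaving out all these long stretches, a setting chosen after seeing the data, brought chromosome 7 close to its neighbours but not past them. Its density became 39.0 peaks per Mb in proliferating cells, a ratio of 0.896 to the other autosomes. In arrested cells it became 262.1, a ratio of 0.955. It was still the lowest in rank in both lists, but barely below chromosomes 12 and 14, which had no long stretch to leave out and stayed at 39.0 and 39.1 in proliferating and at 262.7 and 262.5 in arrested cells.

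Besides the empty stretch, chromosome 7 had several megabases with few peaks. The chromosome was divided into 149 windows of 1 Mb, and a window was called sparse when its count was under 50% of the median of all 2407 autosomal windows, that is, under 21.5 proliferating or 138 arrested peaks. Chromosome 7 had 15 sparse windows in proliferating cells (10.1%, 95% Wilson interval 6.20 to 15.9), where all autosomes together had 2.49%. In arrested cells it had 13 (8.72%, interval 5.17 to 14.4), against 1.58% over all autosomes. These were the highest shares of any autosome. Next in proliferating cells came chromosome 14 with 8.20%, inside the interval of chromosome 7, and chromosome 12 with 5.08%. In arrested cells chromosomes 12 and 14 came next, with 4.24% and 4.10%. In windows of 500 kb on chromosome 7, 40 proliferating (13.4%, against 3.88% over all autosomes) and 31 arrested windows (10.4%, against 1.76%) were sparse. In windows of 2 Mb, 8 (10.8%, against 1.77%) and 6 (8.11%, against 1.35%) were. Of the 149 windows, 6 were empty in each list, against 0.332% of all autosomal windows in either list. The other 18 autosomes together had 2 empty windows among 2258.

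The sparse windows lay in groups. The first ran from 7 to 11 Mb, where 4 windows held 11, 7, 9 and 16 proliferating peaks. The same windows held 142, 45, 111 and 151 arrested peaks, so that the 2 outer ones stayed just above the arrested limit. The second ran from 21 to 24 Mb, with 6, 3 and 5 proliferating and 67, 46 and 71 arrested peaks. There the density was 10.8% of the mean of the other autosomes in proliferating cells and 22.4% in arrested cells. A single window from 33 to 34 Mb held 7 and 120 peaks. The 6 windows from 40 to 46 Mb were empty. The window at their left edge, from 39 to 40 Mb, held 27 proliferating and 129 arrested peaks although only its first part, up to the start of the empty stretch, held any. Only 1 sparse window lay farther along the chromosome. It ran from 110 to 111 Mb and was sparse in proliferating cells, with 17 peaks, while its 282 arrested peaks were above the arrested median of 276. Of the 16 windows sparse in either list, 12 were sparse in both, which is 80% of the proliferating and 92.3% of the arrested ones. On the other autosomes 25 were sparse in both, which is 55.6% of 45 and 100% of 25.

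**Figure D2:**
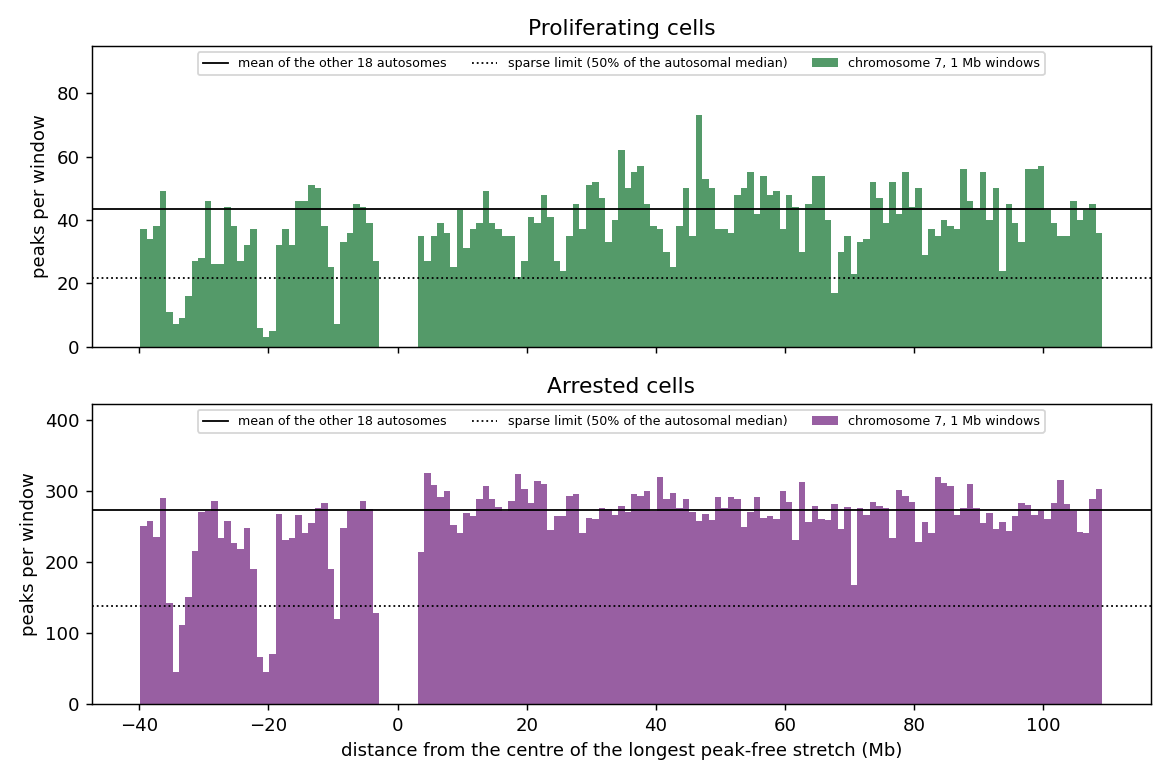
Peaks in each 1 Mb window of chromosome 7 against its distance from the centre of the 7001 kb stretch without peaks, for both lists, with the mean of the other 18 autosomes (solid line) and the sparse limit (dotted line). All sparse windows but 1 lie at or to the left of the empty stretch, while the arrested profile to its right stays near the mean of the other autosomes.

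The shortfall of chromosome 7 was then added up over its windows, as the mean count of the other autosomes' windows (43.4 proliferating, 273.7 arrested) minus each window's count. Proliferating cells were short of 938 peaks in all. Of these, 27.7% fell in the 6 empty windows, 33.0% in the 9 other sparse windows and 39.3% in the 134 remaining windows. Arrested cells were short of 3569 peaks. Here 46.0% fell in the empty windows, 37.2% in the 7 other sparse ones and 16.8% in the 136 remaining windows. The sparse windows, empty ones included, thus held 60.7% of the proliferating and 83.2% of the arrested shortfall, in 10.1% and 8.72% of the windows. Windows were classed by their own counts, so these shares depend on the limit. At 75% of the median, 39 proliferating windows were sparse (26.2%, against 15.1% over all autosomes) and held 102% of the shortfall. In arrested cells 18 were (12.1%, against 2.91%) and held 97.9%, so at that limit the lists no longer differed as they did at 50%. That limit also called more of all autosomal windows in the proliferating list, so these shares do not compare the lists on equal terms. In the upper 50% of each list by score, the shares at a limit of 50% of the median were 79.3% and 86.8%.

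With the sparse windows left out of every autosome, the remaining windows of chromosome 7 averaged 40.6 proliferating peaks with a standard deviation (SD) of 9.38 over 134 windows. Those of the other autosomes averaged 44.0 (SD 9.85, 2213 windows). Chromosome 7 was thus 7.64% lower and ranked 2nd from the lowest, after chromosome 12 with 40.4. In arrested cells the means were 269.2 (SD 31.0, 136 windows) and 276.0 (SD 24.2, 2233 windows). That is 2.43% lower, and chromosome 7 ranked 3rd from the lowest, after chromosomes 17 and 4 with 265.6 and 267.1. Poisson scatter alone would give an SD of 6.37 and 16.4 on chromosome 7. Windows are not independent replicates, and the difference between the means was not tested.

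**Figure D3:**
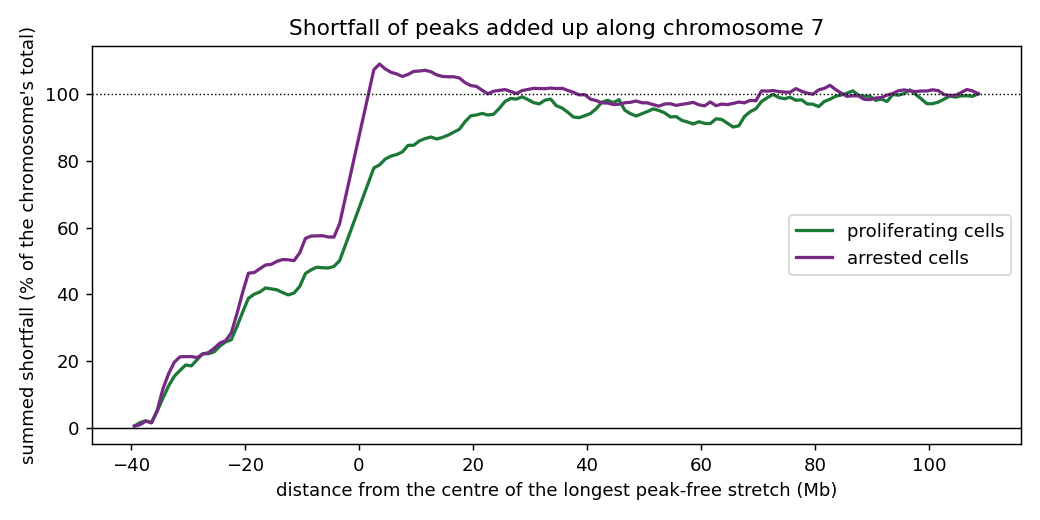
Shortfall of chromosome 7 against the mean of the other autosomes, summed from its first window along the chromosome and given as a percentage of its final value. The arrested sum reached 109% just after the empty stretch and then drifted back, while the proliferating sum stood at 77.8% after the last empty window and reached the total later.

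Percentiles of the window counts show how far a change reaches beyond the lowest windows. A larger share of sparse windows by itself also lowers the higher percentiles, so values without sparse windows follow at the end. In arrested cells the 5th and 10th percentiles were 54.4 and 164.6 peaks on chromosome 7 against 232 and 246 on the other autosomes. The median was 271 against 277, a ratio of 0.978. The 90th and 95th percentiles were 302.2 and 311.6 against 304 and 313, ratios of 0.994 and 0.996, with chromosome 7 ranking 7th and 10th from the lowest of 19. The upper part of the arrested distribution was therefore nearly the same on chromosome 7 as elsewhere. In proliferating cells the lower percentiles also fell far short, with 5.4 against 26 at the 5th and 21 against 30 at the 10th. There the median was 38 against 43, a ratio of 0.884, and chromosome 7 ranked lowest. The 90th and 95th percentiles were 52.2 and 55 against 56 and 60, ratios of 0.932 and 0.917, with chromosome 7 the 2nd lowest at both. Counts on chromosome 7 were thus lower at each of the 7 percentiles computed in both lists. Differences ran from -20.6 to -3.8 peaks in proliferating and from -177.6 to -1.4 in arrested cells. At the 90th and 95th percentiles the proliferating ratios were the lower ones. Without sparse windows, the proliferating ratios at the 50th, 75th, 90th and 95th percentiles were 0.886, 0.936, 0.959 and 0.9225. Chromosome 7 then ranked 1st, 4th, 4th and 2nd from the lowest. The arrested ratios were 0.984, 0.993, 0.998 and 0.998.

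With sparse windows included, the numbers of windows past the quartiles of all autosomal windows pointed the same way. In proliferating cells 55 windows (36.9%, interval 29.6 to 44.9) were below the lower quartile of 36 peaks, where all autosomes had 22.7%, and 94 (63.1%) were below the median, against 46.6%. Above the upper quartile of 50 peaks were 20 windows (13.4%, interval 8.86 to 19.8), against 24.2%. In arrested cells 54 windows (36.2%, interval 29.0 to 44.2) were below the lower quartile of 261 peaks, against 23.8%, and 87 (58.4%) were below the median, against 48.3%. Above the upper quartile of 291 peaks were 29 (19.5%, interval 13.9 to 26.6), against 23.8% over all autosomes. That last interval includes the autosomal share.

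**Figure D4:**
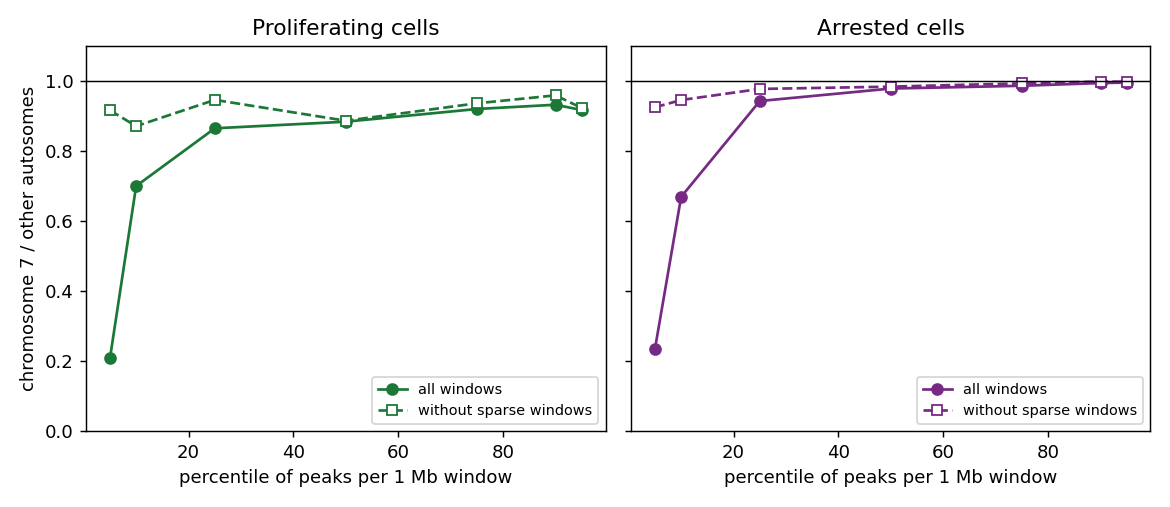
Ratio of chromosome 7 to the other 18 autosomes at 7 percentiles of peaks per 1 Mb window, with all windows (filled) and without sparse windows (open). The arrested ratio climbs from 0.234 at the 5th percentile to 0.996 at the 95th, and the proliferating ratio from 0.208 to 0.917.

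The shortfall was not spread evenly along the chromosome. The 36.4 Mb before the empty stretch held 31.2 proliferating peaks per Mb, 0.719 of the density of the other autosomes (interval 0.678 to 0.762), and 218.4 arrested peaks per Mb, 0.798 of it (0.781 to 0.816). The 106.2 Mb after the stretch held 41.7 proliferating peaks per Mb, a ratio of 0.960 (0.932 to 0.990). In arrested cells it held 277.0, a ratio of 1.012 (1.001 to 1.024), above the whole-chromosome density of 12 of the other 18 autosomes. So beyond the empty stretch the arrested list as a whole showed no shortfall. The proliferating list stayed below the other autosomes pooled, but above the whole-chromosome density of 3 of those 18. This division was chosen after the profile was seen. In windows, the part from 3 to 39 Mb contributed 48.4% of the proliferating and 57.1% of the arrested shortfall. The 7 windows from 39 to 46 Mb contributed 29.5% and 50.1%, and those from 46 Mb on contributed 22.2% and -7.20%.

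Even without its sparse windows the part before the stretch was low. Its remaining full windows averaged 37.3 proliferating peaks, 0.847 of the corresponding mean on the other autosomes, and 244.9 arrested peaks, 0.887 of it. To see whether the beginnings of chromosomes were sparse in general, the same 36.4 Mb from the first peak was taken on each autosome. Chromosome 7 was lowest in both lists. Chromosome 12 came next with 35.2 proliferating and 238.1 arrested peaks per Mb, then chromosome 8 with 38.8 and 246.7, and the medians of the other autosomes were 42.7 and 276.0. Over the rest of each chromosome, without the empty stretch of chromosome 7, it ranked 5th from the lowest in proliferating and 11th in arrested cells.

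Blocks of 10 Mb showed where the lists went together and where they did not. From 20 to 30 Mb, densities were 0.680 of the other autosomes in proliferating cells (interval 0.607 to 0.762) and 0.684 in arrested cells (0.653 to 0.715). From 10 to 20 Mb they were 0.715 and 0.871, and from 30 to 40 Mb 0.793 and 0.859. From 50 to 60 Mb and from 60 to 70 Mb only the proliferating list was low, at 0.855 (0.772 to 0.947) and 0.782 (0.702 to 0.869), while the arrested ratios there were 1.011 (0.974 to 1.049) and 1.057 (1.020 to 1.097). The block from 110 to 120 Mb was low in proliferating cells, at 0.835 (0.753 to 0.925), and slightly low in arrested cells, at 0.947 (0.912 to 0.985). The block from 120 to 130 Mb was at 0.938 and 1.028. The 6 remaining full blocks from 70 to 150 Mb lay between 0.981 and 1.088 in both lists. For comparison, the middle 90% of 206 full blocks on the other autosomes lay between 0.813 and 1.169 in proliferating and between 0.884 and 1.066 in arrested cells. Of the 14 full blocks of chromosome 7, 5 were below that range in proliferating cells and 4 in arrested cells. The blocks from 50 to 60 Mb and from 110 to 120 Mb lay inside it in both lists.

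The densest windows of the chromosome differed between the lists. In proliferating cells the window from 89 to 90 Mb held 73 peaks, followed by 62 from 77 to 78 Mb, 57 each from 80 to 81 and 142 to 143 Mb, and 56 from 130 to 131 Mb. Those 5 windows held 258, 279, 294, 274 and 276 arrested peaks, around the arrested median of 276. In arrested cells the highest count, 326, was from 47 to 48 Mb, beyond the window with 214 peaks in which the empty stretch ended. It was followed by 324 from 61 to 62 Mb, 321 from 83 to 84 Mb, 320 from 126 to 127 Mb and 316 from 145 to 146 Mb. Their proliferating counts were 27, 22, 37, 35 and 35, each below 43, the proliferating median of all autosomal windows. So were 94 of the 149 windows of chromosome 7 (63.1%), whose own median was 38. Across all 149 windows the counts of the lists had a Pearson correlation of 0.72 and a Spearman correlation of 0.28. Over the 133 windows sparse in neither list these were 0.08 and 0.03. On the other autosomes they were 0.28 and 0.03 over all windows, and 0.05 and -0.02 over those sparse in neither list. Windows were left out because of their own low counts, and windows share a chromosome, so the correlations are descriptions.

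In covered length chromosome 7 was also low. Its peaks covered 0.904 Mb in proliferating and 8.75 Mb in arrested cells, or 6.05 and 58.5 kb per Mb, ratios of 0.850 and 0.930 to the other autosomes. Both were the lowest of the 19 autosomes. Without sparse windows the ratios were 0.920 and 0.989, and chromosome 7 ranked 2nd and 7th from the lowest. Over single windows, covered length on chromosome 7 ranged from 0 to 12.6 kb in proliferating cells with a median of 6.23 kb, and from 0 to 79.0 kb in arrested cells with a median of 62.7 kb. The medians on the other autosomes were 7.10 and 62.9 kb.

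Median widths differed little over the whole chromosome but clearly in its sparse windows. The median width was 153 bp on chromosome 7 and on the other autosomes in proliferating cells, and 167 against 166 bp in arrested cells. The arrested upper quartile was 306 against 294 bp. The arrested mean was 234.2 against 229.7 bp, ranking 18th from the lowest of all autosomes. In proliferating cells the mean was 162.7 against 163.9 bp. In the sparse windows of chromosome 7, the 589 arrested peaks had a median width of 331 bp (quartiles 223 and 408), and 59.3% measured at least 300 bp. In its remaining windows the median was 167 bp and 25.4% reached 300 bp. Sparse windows of the other autosomes showed the same, with a median of 307 bp and 51.6%. The 81 proliferating peaks in sparse windows of chromosome 7 were not wider, with a median of 142 bp against 153 bp in its remaining windows. In the window from 22 to 23 Mb, the 46 arrested peaks had a median width of 364.5 bp, the highest of any window of the chromosome.

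Each deposited peak carries a score set by the authors, whose scale no label explains, and scores were compared only within a list. Arrested peaks in the sparse windows of chromosome 7 had a median score of 40.9 (quartiles 27.9 and 71.6) against 97.5 in its remaining windows. Sparse windows of the other autosomes also had low scores, with a median of 49.5 against 97.5 in their remaining windows. Proliferating peaks of chromosome 7 had medians of 23.6 and 24.3 in its sparse and remaining windows, both close to that list's lowest score of 20. Over the whole chromosome the median scores were 24.3 against 24.4 on the other autosomes in proliferating cells and 97.5 on both in arrested cells. A score of at least 50 was reached by 83.8% of arrested peaks on chromosome 7 (interval 83.4 to 84.2) and by 85.7% elsewhere, and by 1.53% (1.24 to 1.89) and 1.69% of proliferating peaks.

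The lowest-scoring arrested peaks were about as dense on chromosome 7 as elsewhere. In the lowest 25% of the list by score, chromosome 7 had 0.996 of the density of the other autosomes (interval 0.976 to 1.016), ranking 10th of 19. In the 3 higher classes the ratios were 0.891, 0.893 and 0.872, each the lowest of any autosome. The part before the empty stretch had an excess of low-scoring arrested peaks, with a ratio of 1.128 (1.086 to 1.171) in the lowest class and 0.726, 0.713 and 0.627 in the others. By width it had 1.053 times the density of the other autosomes in the widest 25% of arrested peaks (1.013 to 1.095) and 0.665 in the narrowest. After the stretch the 4 ratios by score lay between 1.0055 and 1.017. Proliferating peaks showed no such contrast, with ratios by score from 0.667 to 0.772 before the stretch and from 0.951 to 0.974 after it. The median arrested peak before the stretch was 175 bp wide with a score of 88.8, and after it 166 bp with 97.5.

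**Figure D5:**
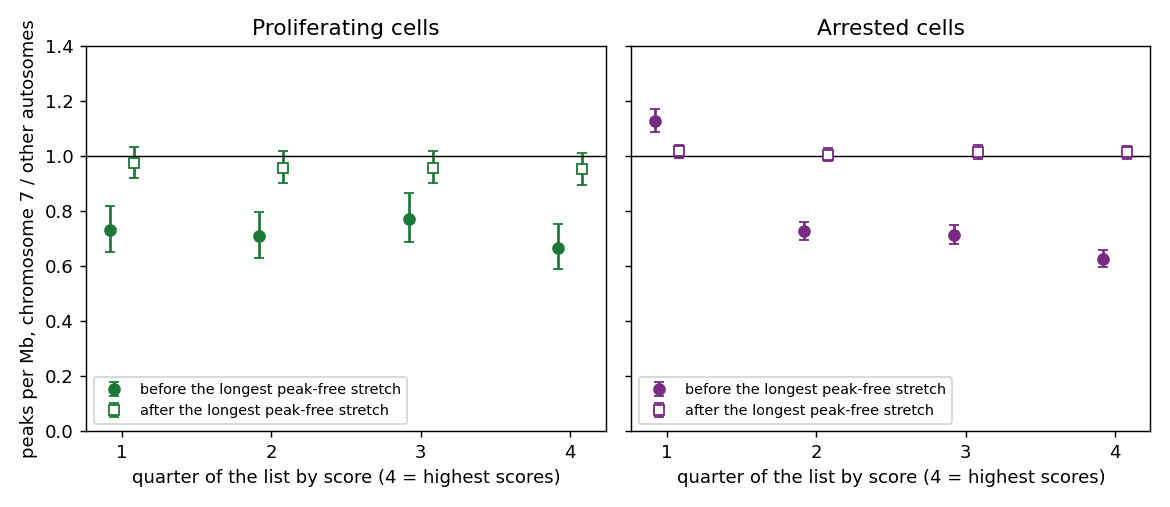
Density of chromosome 7 peaks relative to the other autosomes, in 4 classes of each list by score, before (filled) and after (open) the 7001 kb stretch without peaks, with 95% Poisson intervals. Before the stretch, arrested peaks of the lowest class reached 1.128 while the highest class was at 0.627. After it all arrested classes were near 1.

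The share of peaks called in both lists was slightly below that on the other autosomes, and the lowest of any autosome in each list. Of its proliferating peaks, 602 of 5556 overlapped an arrested peak by at least 1 bp (10.8%, interval 10.0 to 11.7), against 11.6% on the other autosomes (11.4 to 11.8). The intervals overlap, and the lowest other autosome was at 10.8% too. Of its arrested peaks 602 of 37353 overlapped a proliferating one (1.61%, interval 1.49 to 1.74), against 1.84% (1.81 to 1.88). Here the intervals do not overlap, and the lowest other autosome was at 1.63%. These shares were not adjusted for the number of peaks in the other list, and their difference from the other autosomes was not tested.

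The best-ranked peaks of chromosome 7 were below the top 20 of either list. With shares of 5.06% and 5.34% of the lists, this is no departure. The 5 highest-scoring proliferating peaks all had a score of 79.11 and shared rank 40 in the list. They were 65 to 94 bp wide, overlapped no arrested peak, and started at 50564383, 86223088, 89890495, 108331309 and 121617623. The highest-scoring arrested peak ran from 49187354 to 49187544 (191 bp, score 881.35, rank 24), followed by one from 52878956 to 52879205 (250 bp, score 809.74). The next 3 started at 98631843, 114675094 and 92584864, with scores from 707.24 down to 664.24, and none of the 5 overlapped a proliferating peak. With shares of 10.8% and 1.61% over the whole chromosome, 0 of 5 is no departure. All 10 lay beyond the empty stretch, as did 4422 of all 5556 proliferating and 29412 of all 37353 arrested peaks of the chromosome. This too is no departure. None of the proliferating peaks of chromosome 7 reached 1000 bp, which, taken as 3 counts of 5556, allows a share of up to 0.0540%. The share elsewhere was 0.0122%. In arrested cells 12 of its peaks did (0.0321%, against 0.0456% elsewhere). The widest arrested peaks were 1137 bp from 105858373, 1123 bp from 15887508 and 1116 bp from 46581580. The widest proliferating peaks were 430 bp from 141993606, 423 bp from 46582368 and 402 bp from 119550929. Of the shared peaks, the best-ranked in both lists started at 117060660 in proliferating (score 34.11, rank 14698) and at 117060500 in arrested cells (score 394.40, rank 5758). The next 2 started at 109117444 and 13081143 in proliferating cells, with a poorer rank of 18061 and 18326.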

How the data were processed

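Members and measures were chosen with earlier results of these data known. The submitters' processing notes name the build mm9 and the tools Bowtie2, MACS2, bedtools and HOMER, without versions or settings. The authors deposited 1 peak list per immunoprecipitated library with a score per peak, whose scale is not stated. The inputs and the wild-type reference named in the design were not analysed here. Samples were grouped by title, with 1 library per group.

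Lists were used as deposited. Peaks were assigned to windows by their midpoint, and covered bases were split at window edges. Density used the distance from the first to the last peak of either list, which leaves out the empty chromosome start. Windows of 1 Mb were kept where at least 90% lay in that span. Named windows were each sparse one and the 5 with most peaks per list. Named peaks were the 5 with the highest score and the 3 widest per list, and the 3 shared ones whose poorer rank was best, with ties by position. Gene names came from a GRCm38 table and were not joined to peaks. Intervals (95%, Wilson for shares, Poisson for densities) cover counting error only, as does the limit for a count of 0, set at 3 counts. Calculations used Python 3.11.15, numpy 2.4.6, pandas 2.3.3, SciPy 1.17.1 and matplotlib 3.10.9, and were tested on simulated windows.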

Additional observations from a re-analysis of the deposited data

How the results depend on the processing

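No replicate could be left out, with 1 library per group. No paired analysis was possible because each group has 1 sample and no test was run. Of 74 values under other settings, 40 lay inside the interval around the value in the report (counts and shares of the shortfall: within 1.5 times it), 33 moved and 1 turned. In each density setting run, except the arrested peaks after the empty stretch, chromosome 7 stayed below the other autosomes pooled. Density ratios (proliferating, then arrested) were 0.777 and 0.893 for scores of at least 50, where chromosome 7 was 2nd lowest in proliferating cells, 0.925 and 0.976 without sparse windows, and 0.895 and 0.953 without 100 kb bins free of peaks. The arrested ratio was 0.881 in the upper 50% and 0.880 in the upper 10% by score. Chosen after seeing the data were leaving out stretches of at least 500 kb (0.896 and 0.955) and taking chromosome 7 only before (0.719 and 0.798) or only after the empty stretch (0.960 and 1.012, the value that turned). Covered bases gave 0.920 and 0.989 without sparse windows, and 0.886 for the upper 50% of arrested peaks. There the median width difference was 0 bp and the median score difference -3.13. With 75% of the median as limit, 39 proliferating windows were sparse (26.2%, against 15.1% over all autosomes) and held 102% of the shortfall. Sparse windows numbered 40 and 31 at 500 kb (13.4% and 10.4%, against 3.88% and 1.76% over all autosomes). At 2 Mb they numbered 8 and 6 (10.8% and 8.11%, against 1.77% and 1.35%). Overlap shares were 6.62% and 0.535% with at least 50% of the peak overlapped, 5.53% and 0.845% in the upper 50%, and 14.2% and 2.67% after merging within 1000 bp. The correlations of the lists were 0.0821 (Pearson) and 0.0281 (Spearman) without sparse windows, and Pearson's was 0.797 at 2 Mb. What caused the remaining moves was not tested. Depth could not be set equal, since the lists hold no read counts.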

Other observations

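The edges of the 7001 kb stretch without peaks were dense rather than sparse. This was noticed in the data and is given as values. The 500 kb before the stretch held 34 proliferating peaks, or 68 per Mb (exact Poisson interval 47.1 to 95.02), and 168 arrested peaks, or 336 per Mb (287 to 391). The 500 kb after it held 31 and 172 peaks, or 62 (42.1 to 88.0) and 344 per Mb (295 to 399). Windows of 500 kb on the other autosomes had medians of 22 and 138 peaks and 95th percentiles of 32 and 161. The 10 flanks of the 5 other long stretches held 11 to 34 proliferating peaks, with a median of 22, and 65 to 149 arrested peaks, with a median of 131.5. Both flanks on chromosome 7 thus had more arrested peaks than any of those 10.

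A site within 500 kb of the right edge was among the 3 widest of chromosome 7 in both lists. It ran from 46582368 to 46582790 in proliferating cells and from 46581580 to 46582695 in arrested cells, with scores of 40.06 and 99.30.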
